A study of Mus musculus with 4 samples.

Results

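The distal end of mouse chromosome 1, from 170 Mb to the last peak, had fewer ATAC-seq reads in lung adenocarcinoma cells that carried a guide against Malat1 than in cells that carried a guide against luciferase. All peaks of the authors' deposited table on chromosome 1 with a start of 170000000 or more (mm10) were taken, 1164 of 80881 peaks, or 1.44% of the table. The first starts at 170006554 and the last ends at 195371816, so the peaks span 25.4 Mb, and the authors assigned them to 234 genes. The segment was chosen because its group means were lower in Malat1-guide cells. Its differences are therefore given as a description, with no test.

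The assay was ATAC-seq, whose transposase cuts accessible DNA and attaches sequencing adapters to it. Malat1-guide cells were KPC cells with mA2 dRNA, which directs CRISPR activation to Malat1, a nuclear long noncoding RNA. Luciferase-guide cells were KPC cells with Con dRNA, which targets luciferase, a gene foreign to the mouse. Both groups were the same line from a KP mouse lung tumour, both carried lentiviral Cas9, and the activation vector was lenti-SAM-Hygro. There were 2 biological replicate samples in each of the 2 groups, and the model is a single cell line. Reads below are group means of normalized reads in a peak, as the authors deposited them. No spread between samples is printed because the 4 columns with values per library carry no sample label and were not used. A difference is the log2 ratio of the mean of Malat1-guide cells to that of luciferase-guide cells, and a peak is called where the authors' deposited table gives it an adjusted p under 0.05. Those p-values come from the authors' own test. DiffBind is among the tools the submitters name, but no source used here states the test or its settings. The group means were matched to the labels by the luciferase and Malat1 names in the headers, which write dmA12 where the labels write mA2.

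Open chromatin marks the promoters and enhancers at which transcription factors bind, and promoters of widely used genes are open in most cells. The distal part of mouse chromosome 1 corresponds to a part of the long arm of human chromosome 1. It carries Fc receptor, SLAM and PYHIN gene clusters of the immune system, the growth factor gene Tgfb2, the stress factor gene Atf3, the DNA repair gene Parp1, and the genes of miR-205 and of miR-29b and miR-29c. The number of reads in an ATAC-seq peak depends on how open the site is and on how many copies of the DNA the culture holds. In these group means less open chromatin, fewer copies of the segment and fewer cells that carry it cannot be told apart.

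Promoter sequences of 4 genes are shown because the peaks over them carry the contrasts within the segment. The Sde2 promoter was called lower, the Cd34 promoter was called higher, the Atf3 promoter lay under 1 of the strongest peaks, and the Kcnh1 promoter lay near the start of a stretch of higher means. Each is the 250 bases upstream of the RefSeq start site (GRCm38.p6, the mm10 assembly), 5′ to 3′ on the gene's strand. Capitals mark every match, on either strand, to the GC box GGGCGG, the CCAAT box, the E-box CACGTG, the AP-1 motif TGANTCA or the CRE core TGACG.
Sde2, chr1:180850901-180851150, plus strand: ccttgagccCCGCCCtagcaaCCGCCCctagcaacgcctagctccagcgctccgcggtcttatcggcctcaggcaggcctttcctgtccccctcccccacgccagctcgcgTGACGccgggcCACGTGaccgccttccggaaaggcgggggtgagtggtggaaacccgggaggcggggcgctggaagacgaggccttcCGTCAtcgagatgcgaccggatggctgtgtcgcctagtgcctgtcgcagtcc
Cd34, chr1:194938571-194938820, plus strand: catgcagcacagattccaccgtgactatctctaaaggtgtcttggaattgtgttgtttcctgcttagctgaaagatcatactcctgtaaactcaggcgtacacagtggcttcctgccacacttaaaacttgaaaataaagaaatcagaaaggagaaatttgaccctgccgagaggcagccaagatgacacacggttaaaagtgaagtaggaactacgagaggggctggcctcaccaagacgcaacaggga
Atf3, chr1:191183334-191183583, minus strand: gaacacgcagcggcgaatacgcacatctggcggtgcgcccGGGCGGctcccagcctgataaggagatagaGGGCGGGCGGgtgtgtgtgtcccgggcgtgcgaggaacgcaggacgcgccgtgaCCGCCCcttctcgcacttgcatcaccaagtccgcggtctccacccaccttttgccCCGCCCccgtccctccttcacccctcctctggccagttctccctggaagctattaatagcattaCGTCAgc
Kcnh1, chr1:192190527-192190776, plus strand: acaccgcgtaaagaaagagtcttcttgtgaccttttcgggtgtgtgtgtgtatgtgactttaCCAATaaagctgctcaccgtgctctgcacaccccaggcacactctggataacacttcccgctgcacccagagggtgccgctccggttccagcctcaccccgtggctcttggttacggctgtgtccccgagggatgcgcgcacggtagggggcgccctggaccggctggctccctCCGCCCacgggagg

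The 4 promoters differed in base content. The G and C content was 69.2% at Sde2, 46.4% at Cd34, 65.2% at Atf3 and 62.0% at Kcnh1, with 26, 6, 24 and 17 CpG dinucleotides. Sde2 held 2 GC boxes, 1 E-box and 2 CRE cores, and Atf3 held 5 GC boxes, of which some overlap, and 1 CRE core. Kcnh1 held 1 GC box and 1 CCAAT box, and Cd34 held none of the 5 motifs in this window. Of 32817 upstream windows of 250 bases in the RefSeq table, 32.7% held a GC box, 33.8% a CCAAT box, 6.02% an E-box, 6.75% the AP-1 motif and 17.7% a CRE core. Among the 429 windows of the segment the shares were 31.0%, 31.0%, 5.59%, 8.86% and 13.5%. The peaks covered 161 of the 250 bases at Sde2, 149 at Cd34 and all 250 at Atf3 and Kcnh1.

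Mature sequences of 3 microRNAs are shown because their genes lie in the segment and peaks were assigned to them. Capitals mark the seed, bases 2 to 8, in the RefSeq sequences.
mmu-miR-205-5p: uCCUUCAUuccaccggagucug
mmu-miR-29b-3p: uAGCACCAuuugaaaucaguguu
mmu-miR-29c-3p: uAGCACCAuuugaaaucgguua

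The 2 miR-29 members share 1 seed, and miR-205-5p has another. miR-205 is known in epithelia as a repressor of ZEB factors, which drive the mesenchymal state, and miR-29 as a repressor of collagen transcripts. Peaks assigned to Mir205 had a lower mean in Malat1-guide cells in 16 of 20 cases, with a median difference of -0.27. Its leading peak lies 118 kb upstream, at chr1:193625590-193625990, and held 141 reads in Malat1-guide cells and 266 in luciferase-guide cells, and the authors' deposited table put its adjusted p at 0.0503. The peak nearest to the hairpin, 3.61 kb downstream of its start, held 83.8 reads in Malat1-guide cells and 147 in luciferase-guide cells. The single peak assigned to Mir29c held 31.1 reads in Malat1-guide cells and 40.8 in luciferase-guide cells. The 2 Mir29b-2 peaks held 115 and 52.7 reads in Malat1-guide cells, against 148 and 47.1 reads in luciferase-guide cells. No peak of Mir205, Mir29b-2 or Mir29c was called.

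Across the segment, peaks lay lower in Malat1-guide cells as a body. Of the 1164 peaks, 858 (73.7%) had the lower mean in Malat1-guide cells, and the median difference was -0.24, a ratio of 0.846. The quartiles were -0.46 and 0.02. Pooled over the rest of the genome, more peaks were higher than lower. Over the 75198 peaks of other chromosomes the median was 0.10 with 38.4% of peaks lower, and over the 4519 peaks of chromosome 1 before 170 Mb it was 0.05 with 44.3% lower. Chromosome X had a median of -0.12 with 63.0% of its 1854 peaks lower, and chromosome Y -0.26 over 12 peaks. The medians of chromosomes 3, 18, 12 and 5 lay between -0.02 and -0.01.

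Summed reads showed the same direction. The segment's peaks together held 168801 normalized reads in Malat1-guide cells and 197705 in luciferase-guide cells, a ratio of 0.854. That was 1.27% of all normalized reads in Malat1-guide cells and 1.59% in luciferase-guide cells. For the earlier part of chromosome 1 the ratio was 1.04, and for the other chromosomes 1.07. The spread of the differences was of similar size, with an SD over peaks of 0.51 in the segment and 0.53 over all peaks.

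**Figure D1:**
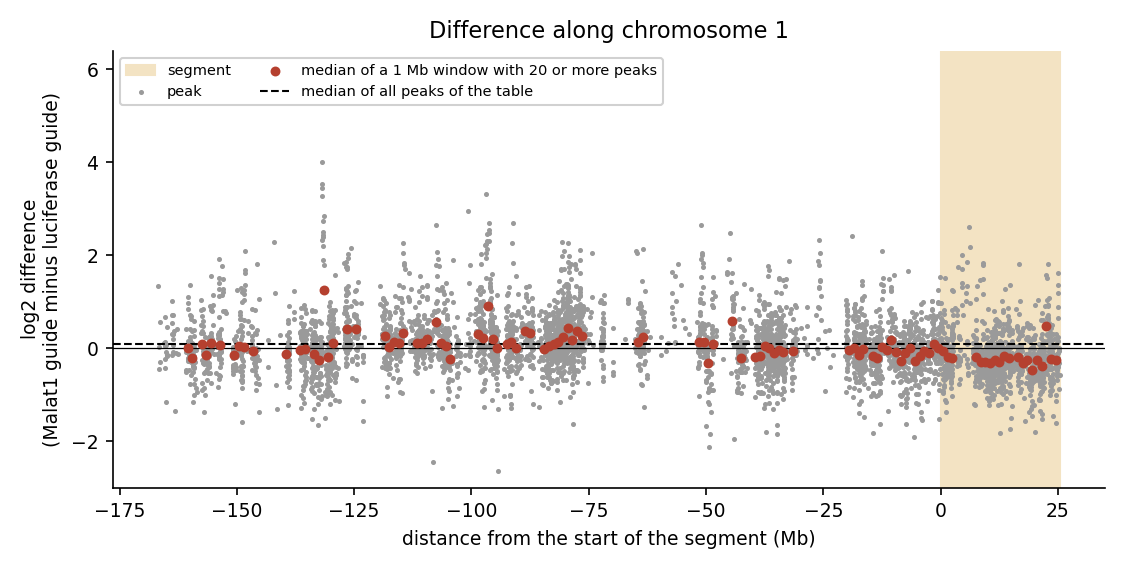
Log2 difference of the group means (Malat1 guide minus luciferase guide) for each peak of chromosome 1 against its distance in Mb from the start of the segment; red points are medians of 1 Mb windows with at least 20 peaks. Within the shaded segment 19 of 20 such windows have a median below 0, and the exception lies 22 Mb in.

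The windows of chromosome 1 showed no sharp edge at 170 Mb. In windows of 5 Mb the median difference was -0.09 from 155 Mb, -0.12 from 160 Mb and -0.05 from 165 Mb. It was -0.15 from 170 Mb and -0.24 from 175 Mb, and lay between -0.31 and -0.25 in the windows from 180, 185, 190 and 195 Mb. In the 1 Mb on each side of the boundary the median was -0.06 over 63 peaks after it and 0.00 over 33 peaks before it.

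Single peaks at the boundary showed no step down. The 3 nearest peaks inside, all assigned to 3110045C21Rik, held 148, 192 and 217 reads in Malat1-guide cells, against 93.8, 165 and 194 reads in luciferase-guide cells. All 3 means were thus higher in Malat1-guide cells. Of the 3 nearest peaks outside, the Hsd17b7 promoter peak held 932 reads in Malat1-guide cells and 893 in luciferase-guide cells. The other two outside, also assigned to 3110045C21Rik, held 48.6 and 50.7 reads in Malat1-guide cells, against 24.8 and 62.9 reads in luciferase-guide cells.

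Other stretches of the genome also had lower means. Over the 244 windows of 10 Mb with at least 100 peaks, 62 (25.4%) had a median below 0. The windows of the segment ranked 2 (from 180 Mb, -0.27), 5 (from 190 Mb, -0.25) and 7 (from 170 Mb, -0.19) from the lowest. The lowest window was the start of chromosome 10, with a median of -0.32 over 179 peaks, and 2 windows of chromosome X ranked 3 and 4.

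Within the segment the difference was much the same at weak and strong peaks. All peaks of the table were divided by their mean over both groups into 5 bins of equal size, and from the weakest to the strongest bin the segment's medians were -0.25, -0.16, -0.21, -0.27 and -0.26. All other peaks had medians of 0.11, 0.14, 0.11, 0.09 and 0.07 in the same bins, so the segment lay 0.30 to 0.36 below them in each. In the strongest bin, peaks of 237 reads or more, 211 of 235 segment peaks (89.8%) had the lower mean in Malat1-guide cells, against 34.7% of other peaks. The scatter was smallest there, with an SD over peaks of 0.22, against 0.66 in the weakest bin.

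Kinds of site shared the direction too. The median difference was -0.24 at 164 promoter peaks, -0.24 at 22 peaks in 5′ UTRs, -0.20 at 71 exon peaks and -0.25 at 413 intron peaks. It was -0.38 at 21 peaks in 3′ UTRs and -0.24 at 472 distal intergenic peaks. Promoter peaks were lower in 134 of 164 cases (81.7%), against 35.5% of promoter peaks elsewhere. By distance the median was -0.26 from 1 to 10 kb from a start site, -0.25 from 10 to 100 kb and -0.15 beyond 100 kb, where other peaks had 0.07, 0.11 and 0.16.

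**Figure D2:**
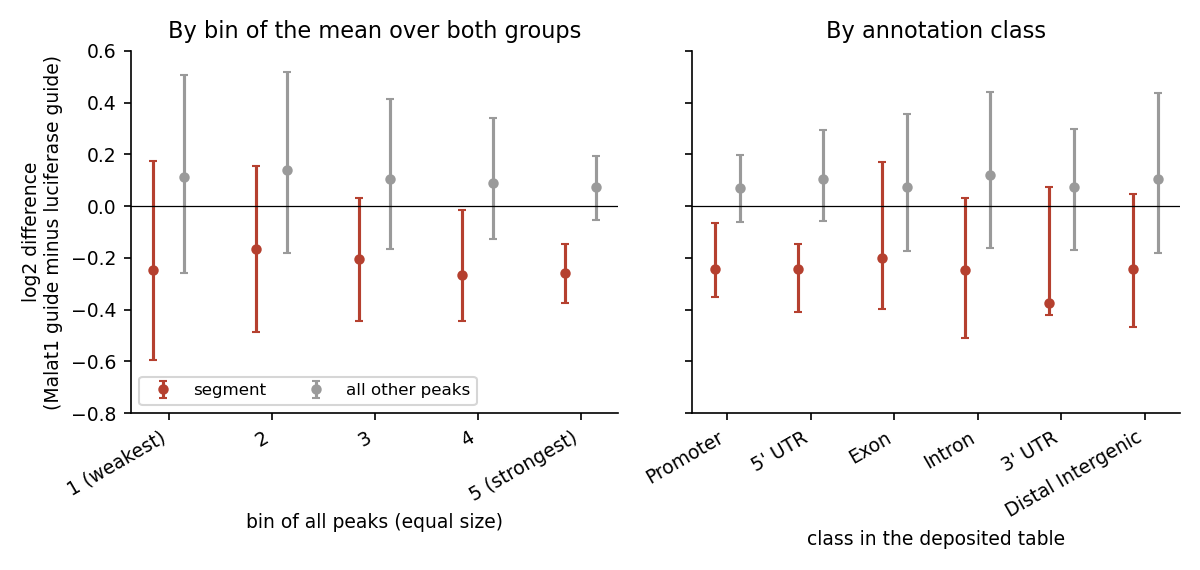
Median log2 difference (Malat1 guide minus luciferase guide, points) with quartiles (bars) for peaks of the segment and all other peaks, by bin of the mean reads over both groups and by annotation class. Every segment median is below 0 and every other median is above 0, and the quartile range of the segment narrows to -0.37 to -0.15 in the strongest bin.

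The difference was of similar size at promoters of low and of high G and C content. Of the segment's peaks, 126 overlapped a RefSeq promoter window, covering 136 genes, and 104 of the 126 had the lower mean in Malat1-guide cells. The median G and C content of those promoters was 60.0%, against 60.4% at 9736 promoter peaks elsewhere. With promoters divided into 3 bins by G and C content, the segment's median difference was -0.24 over 48 peaks in the lowest bin, -0.25 over 32 in the middle and -0.27 over 46 in the highest. Elsewhere the bins had 0.06, 0.07 and 0.09.

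The segment held somewhat more distal intergenic peaks than the rest of the table. Distal intergenic peaks made up 40.5% of its peaks and introns 35.5%, against 33.2% and 38.4% of all other peaks, and promoters made up 14.1% against 16.9%. The median peak held 70.6 reads over both groups, against 68.2 in the earlier part of chromosome 1. Peaks were denser, at 45.9 per Mb against 26.6 per Mb before 170 Mb. No test was made of these shares.

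Counted by gene, the direction was widely shared. Among genes with at least 6 peaks in the segment, 68 of 75 had a median difference below 0, against 1340 of 4396 such genes elsewhere (30.5%). In 11 of them every peak was lower in Malat1-guide cells. They included Fcgr3, Desi2, Itpkb, Stum, Sde2, Ephx1, Trp53bp2, Capn8, Garin4 and Nenf, with Stum the largest at 10 of 10 peaks and a median of -0.45. The 7 genes with a median above 0 included Ddr2, Cfap45, 1700112H15Rik, Hhat, Sertad4 and Cd34.

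Few single peaks passed the threshold. By the authors' deposited table, 18 segment peaks were called lower and 10 higher, which is 1.55% and 0.859% of the segment. Over all peaks 0.507% were called lower and 2.23% higher, and 2.73% were called in either direction. Before adjustment, at p under 0.05 by the authors' deposited table, 139 segment peaks were lower and 37 higher, 11.9% and 3.18% of the segment, against 2.85% and 8.86% of all peaks. The segment was chosen for lower means in this same contrast, so an excess of lower peaks is built in and these shares test nothing. When all differences were centred on the median of all peaks, 45 were called lower and 9 higher, so the share of lower calls was 83.3%, against 64.3% as deposited. That centring takes 0.09 from every difference, so a gain of lower calls is built in.

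Called peaks with lower means included strong sites that moved little and weak sites that moved far. The peak with the smallest p, chr1:184808638-184809038, lies in a 5′ UTR of Mtarc1, which encodes a mitochondrial amidoxime-reducing enzyme. It held 63.6 reads in Malat1-guide cells and 213 in luciferase-guide cells, a 3.35-fold fall, and the authors' deposited table put its adjusted p at 5.61e-05. The Sde2 promoter peak, chr1:180850661-180851061, at a gene of the replication stress response whose sequence is given above, held 984 reads in Malat1-guide cells and 1269 in luciferase-guide cells. That was a 1.29-fold fall, the authors' deposited table put its adjusted p at 0.0168, and it was the smallest fall among the 18.

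Peaks of Ppp2r5a, Coq8a and Cnih3 were also called lower. A peak near the start of Ppp2r5a, a regulatory subunit of protein phosphatase 2A, held 829 reads in Malat1-guide cells and 1077 in luciferase-guide cells. The authors classed it as intronic, but it overlapped the RefSeq promoter window of the gene and lay outside its RefSeq bounds. A peak at Coq8a, needed for coenzyme Q synthesis, held 701 reads in Malat1-guide cells and 939 in luciferase-guide cells. The authors classed it in a 5′ UTR, and it overlapped the RefSeq promoter window of the gene. Cnih3, an auxiliary subunit of AMPA receptors, had 2 called intronic peaks, of which the stronger held 434 reads in Malat1-guide cells and 623 in luciferase-guide cells. The weaker, near the start of the gene, held 110 reads in Malat1-guide cells and 221 in luciferase-guide cells, a 2.00-fold fall. Adjusted p lay between 0.0309 and 0.0478 for these 4 peaks in the authors' deposited table.

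At 4 further called peaks the falls lay between 2.16-fold and 2.66-fold. Fcrlb, an Fc receptor-like protein of B cells, had a promoter peak with 105 reads in Malat1-guide cells and 226 in luciferase-guide cells. An intronic peak of Itpkb, an inositol trisphosphate kinase, held 67.4 reads in Malat1-guide cells and 148 in luciferase-guide cells, and all 9 Itpkb peaks lay lower. A distal peak near Lpgat1, an acyltransferase of phospholipids, held 42.4 reads in Malat1-guide cells and 113 in luciferase-guide cells. A distal peak near Degs1, the desaturase that completes ceramide synthesis, held 47.4 reads in Malat1-guide cells and 111 in luciferase-guide cells. The adjusted p of these 4 peaks lay between 0.0214 and 0.0452 in the authors' deposited table.

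The remaining lower calls lay 20.1 kb or more from start sites. A distal peak 91.0 kb from Prox1os, an antisense gene beside the homeobox gene Prox1, held 25.2 reads in Malat1-guide cells and 87.9 in luciferase-guide cells, and the authors' deposited table put its adjusted p at 0.00857. A distal peak assigned to Ccdc185 showed the largest fall, 3.54-fold, with 13.4 reads in Malat1-guide cells and 47.5 in luciferase-guide cells. Further lower calls included peaks at A730004F24Rik, D1Pas1, Olfml2b, D730003I15Rik and a distal peak of Cd34. The falls of these 5 ran from 1.59-fold to 1.99-fold. Centring on the median of chromosome 1, a setting added after the data were seen, ended the calls at Coq8a (0.0506) and D730003I15Rik (0.0505).

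**Figure D3:**
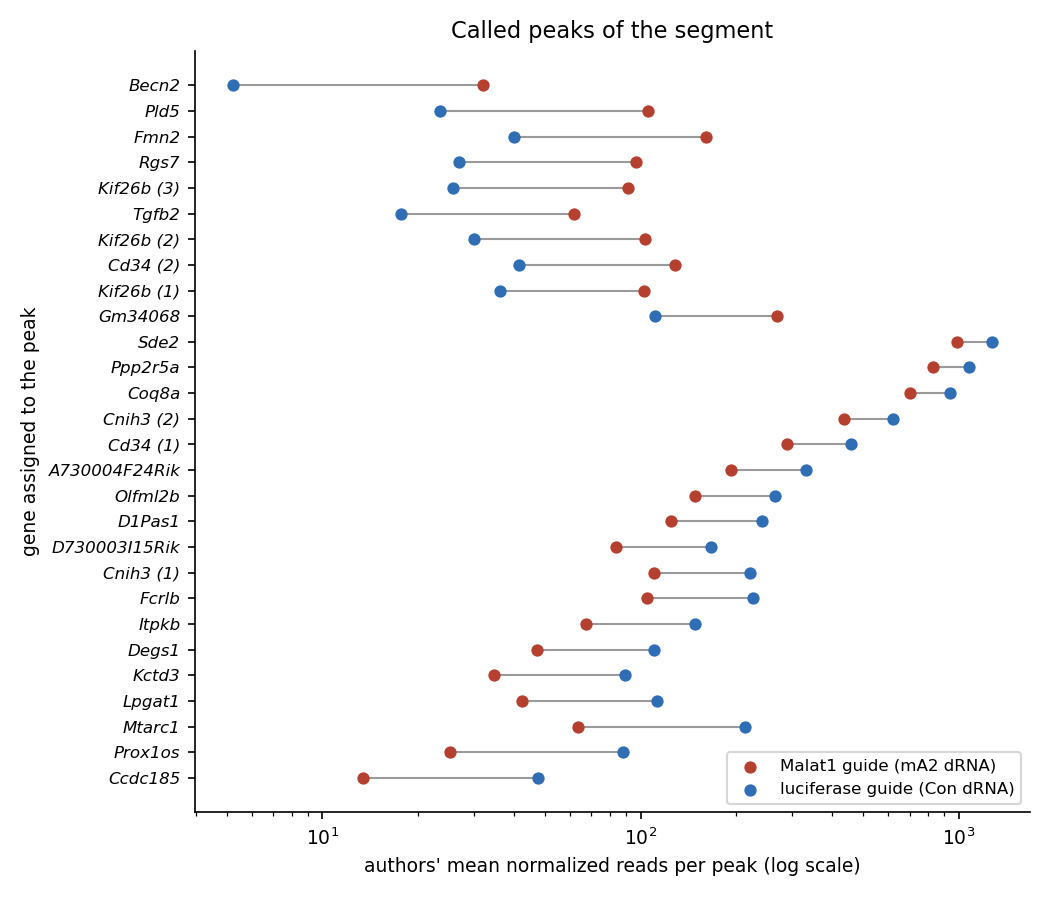
Authors' mean normalized reads (log scale) in Malat1-guide cells and in luciferase-guide cells for the 28 called peaks of the segment, labelled by the assigned gene and ordered by the difference, highest on top. The 10 higher peaks hold at most 111 reads in luciferase-guide cells, while the 18 lower peaks run up to the Sde2 promoter with 984 reads in Malat1-guide cells and 1269 in luciferase-guide cells. Calling a rise favours peaks with few reads in luciferase-guide cells, so this contrast is partly built in.

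Peaks called higher were weak in luciferase-guide cells. Their reads in luciferase-guide cells ran from 5.24 to 111, and the median rise was 3.53-fold, against a median fall of 2.00-fold among the lower calls. Over both groups their median was 65.4 reads, against 165 at the lower calls. Calling a rise favours peaks with few reads in luciferase-guide cells, and weak peaks must move further to be called. Both contrasts are thus partly built in. An intronic peak of Fmn2 at chr1:174654585-174654985, a gene of an actin-nucleating formin, held 161 reads in Malat1-guide cells and 40.0 in luciferase-guide cells, and the authors' deposited table put its adjusted p at 5.95e-05. A distal peak near Pld5, a member of the phospholipase D family, held 105 reads in Malat1-guide cells and 23.3 in luciferase-guide cells, and the authors' deposited table put its adjusted p at 5.23e-04. An intronic peak of Pld5, assigned to Becn2, a relative of the autophagy gene beclin 1, held 31.9 reads in Malat1-guide cells and 5.24 in luciferase-guide cells. That was the largest rise, 6.09-fold, and the authors' deposited table put its adjusted p at 0.0186.

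Part of the higher calls lay where peaks were sparse. Fmn2, Rgs7, Pld5 and Becn2 held 4 of the 10 higher calls, and all lie between 173 and 177 Mb, where 51 peaks were found in 4 Mb. The distal Rgs7 peak, near a regulator of G protein signalling, held 97.1 reads in Malat1-guide cells and 26.9 in luciferase-guide cells. In this tract 27 of 51 peaks were lower and the median difference was -0.03. The 4 higher calls were 7.84% of its peaks, against 2.23% of all peaks. No peak was called lower, which says little over 51 peaks because 0.507% of all peaks were called lower. Before adjustment, at p under 0.05 by the authors' deposited table, 11 of the tract's peaks were higher and 2 lower. Of all peaks, 8.86% were higher and 2.85% lower at that p. The bounds of the tract were not set in advance.

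Another 3 higher calls were assigned to Kif26b. Kif26b, a kinesin gene, was assigned 18 peaks, of which 11 were lower, and the 10 peaks nearest to its start site, within 229 kb of it, all had the lower mean in Malat1-guide cells. Its 3 called peaks lie 407, 469 and 471 kb from the start site, the first in a 3′ UTR and the others in an intron of Smyd3, a lysine methyltransferase gene. They held 103, 91.3 and 102 reads in Malat1-guide cells, against 29.95, 25.7 and 36.2 reads in luciferase-guide cells. Their adjusted p was 0.0423, 0.00647 and 0.0123 in the authors' deposited table, and the first was 0.0688 after centring on the median of all peaks. Smyd3 itself had 15 of 17 peaks lower, with a median of -0.39.

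Cd34 was called in both directions, and Tgfb2 had 1 higher call beside lower means of which none was called. Cd34, a surface sialomucin of blood progenitors and endothelium, had a promoter peak, chr1:194938672-194939072, with 128 reads in Malat1-guide cells and 41.5 in luciferase-guide cells, a 3.09-fold rise. The authors' deposited table put the adjusted p of that peak at 0.00217. Peaks 8.48 kb upstream and 2.69 and 6.59 kb downstream held 46.7, 73.7 and 67.2 reads in Malat1-guide cells, against 20.5, 28.7 and 36.2 reads in luciferase-guide cells, none of them called. The distal peak 29.5 kb upstream was called lower, with 288 reads in Malat1-guide cells and 459 in luciferase-guide cells. Of the 9 peaks of Cd34, 5 had the higher mean in Malat1-guide cells and 4 the lower, with 1 called in each direction.

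Of 8 peaks at Tgfb2, which encodes a TGF-beta ligand, 7 were lower and 1 was called higher. The called peak, in an intron at chr1:186671758-186672158, 33.8 kb from the start site, held 61.9 reads in Malat1-guide cells and 17.7 in luciferase-guide cells, and the authors' deposited table put its adjusted p at 0.0243. The promoter peak held 299 reads in Malat1-guide cells and 353 in luciferase-guide cells, and its adjusted p was 0.817 in the authors' deposited table. The lowest difference among the 7 was -0.31, and others were as small as -0.004, -0.01, -0.04 and -0.10. None of the 7 was called, and the median over the gene's 8 peaks was -0.07. The last higher call lay in an intron of the gene model Gm34068, with 268 reads in Malat1-guide cells and 111 in luciferase-guide cells.

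Inside the segment a single window of 1 Mb with at least 20 peaks, from 192 to 193 Mb, had a median above 0. It holds a stretch of 710 kb, from 192188082 to 192897670, chosen here after its values were seen. The stretch runs over Kcnh1, a voltage-gated potassium channel, Hhat, the acyltransferase that attaches palmitate to hedgehog proteins, the gene models A730013G03Rik and Gm15867, and Sertad4. Of its 30 peaks 23 were higher in Malat1-guide cells, with a median difference of 0.50. The 33 peaks in the 500 kb before it had a median of -0.36 with 28 lower, and the 27 peaks in the 500 kb after it had -0.10 with 17 lower.

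No peak of the stretch was called in the authors' deposited table, which says little over 30 peaks because 2.23% of all peaks were called higher. Before adjustment, at p under 0.05 by that table, 7 of its peaks were higher and 0 lower. Of all peaks, 8.86% were higher and 2.85% lower at that p. The stretch was chosen after its values were seen, so an excess of higher peaks is built in and these counts test nothing. The Kcnh1 promoter peak, whose sequence is given above, held 109 reads in Malat1-guide cells and 57.6 in luciferase-guide cells, and the authors' deposited table put its adjusted p at 0.164. An intronic Kcnh1 peak held 61.3 reads in Malat1-guide cells and 20.5 in luciferase-guide cells, and the peak beyond Sertad4 held 46.3 reads in Malat1-guide cells and 13.2 in luciferase-guide cells. Their adjusted p was 0.0557 and 0.0519 in the authors' deposited table. Hhat had 10 of 13 peaks higher, though its strongest peak held 567 reads in Malat1-guide cells and 837 in luciferase-guide cells. Without the 30 peaks the segment's median was -0.25.

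**Figure D4:**
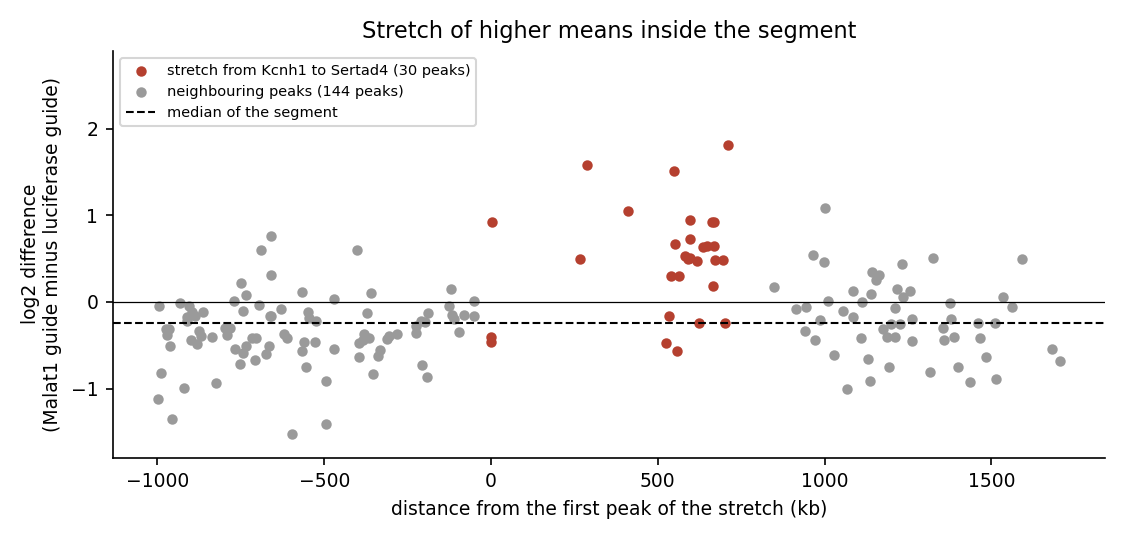
Log2 difference of the group means (Malat1 guide minus luciferase guide) of each peak within 1 Mb of the stretch from Kcnh1 to Sertad4, against the distance in kb from the stretch's first peak. Of the 30 peaks of the stretch 23 lie above 0. The median was -0.36 over the 33 peaks in the 500 kb before it and -0.10 over the 27 peaks in the 500 kb after it. The dashed line is the segment's median of -0.24.

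Genes of the segment were then grouped by role in 10 lists with 142 genes, of which 115 had a peak in the segment and 618 peaks in all. All 10 lists had a median below 0, between -0.43 and -0.09, beside the segment's -0.24 and the 0.09 of all peaks. Of all peaks, 2.73% were called. Fc receptors and SLAM family members had 19 of 30 peaks lower over 13 genes, with a median of -0.23 and 1 called peak, the Fcrlb promoter. Fcgr2b and Slamf9, an inhibitory Fc receptor and a SLAM relative, had leading peaks with 27.9 and 131 reads in Malat1-guide cells, against 9.78 and 73.7 reads in luciferase-guide cells, neither called.

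Interferon-inducible PYHIN genes, which encode DNA sensors, had 7 of 13 peaks lower, a median of -0.16 and 0 called peaks. Before adjustment, at p under 0.05 by the authors' deposited table, 1 was higher and 0 lower. The promoter peaks of Ifi204 and Ifi211 held 355 and 280 reads in Malat1-guide cells, against 432 and 357 reads in luciferase-guide cells. The leading Ifi207 peak held 46.8 reads in Malat1-guide cells and 13.8 in luciferase-guide cells and was not called.

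Genes of inflammatory and stress signalling had 55 of 72 peaks lower, a median of -0.27, and 1 lower and 0 higher calls, the lower call at Itpkb. Traf5, an adaptor of TNF receptors, had 5 of 6 peaks lower, and its promoter peak held 640 reads in Malat1-guide cells and 815 in luciferase-guide cells. The authors' deposited table put its adjusted p at 0.126, which became 0.0290 after centring on the median of all peaks. Such centring favours lower peaks and works against higher ones by construction, so the smaller value is no added evidence. Parp1, which senses DNA breaks, had 3 of 3 peaks lower, with 446 reads in Malat1-guide cells and 586 in luciferase-guide cells at the promoter. All 4 peaks assigned to Atf3, a stress-induced transcription factor, were lower, led by 427 reads in Malat1-guide cells and 557 in luciferase-guide cells. The authors classed these 4 peaks as intronic, but they lie outside the RefSeq bounds of Atf3.

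The peak over the printed Atf3 promoter was assigned by the authors to Garin4, 18.5 kb away. It held 1040 reads in Malat1-guide cells and 1272 in luciferase-guide cells, and the authors' deposited table put its adjusted p at 0.128. After centring on the median of all peaks, which favours lower peaks by construction, it was 0.0207. It was 1 of the 5 strongest of the segment, counting 1 peak per gene. The others lay at the promoter of 1700056E22Rik, with 1213 reads in Malat1-guide cells and 1451 in luciferase-guide cells, at the promoter of Flvcr1, a haem exporter, with 1163 reads in Malat1-guide cells and 1361 in luciferase-guide cells, and at Smyd3 and Nenf. Smyd3 held 1103 reads in Malat1-guide cells and 1292 in luciferase-guide cells. Nenf held 1114 reads in Malat1-guide cells and 1210 in luciferase-guide cells. All 5 were lower in Malat1-guide cells, and none was called.

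TGF-beta and Nodal pathway genes had 24 of 31 peaks lower, a median of -0.15 and 1 higher call, the Tgfb2 intron. The leading peak of Enah, an actin regulator, held 50.8 reads in Malat1-guide cells and 95.3 in luciferase-guide cells and was not called. The list of transcription factors, which also held the kinesin gene Kif26b, had 45 of 60 peaks lower, a median of -0.26, 0 lower calls and 3 higher calls, all at Kif26b. Without Kif26b, which was left out after its values were seen, 34 of 42 peaks were lower and 0 were called, while before adjustment 4 lower and 2 higher peaks had p under 0.05 by the authors' deposited table. Zbtb18, a transcriptional repressor, had a promoter peak with 900 reads in Malat1-guide cells and 1130 in luciferase-guide cells, and a distal peak of the homeobox gene Hlx held 57.4 reads in Malat1-guide cells and 22.5 in luciferase-guide cells. Prox1, a factor of lymphatic and liver cells, had a promoter peak with 42.3 reads in Malat1-guide cells and 51.2 in luciferase-guide cells.

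Adhesion, junction and polarity genes lay nearest to 0, with 54 of 99 peaks lower and a median of -0.09. Their 2 calls were the 2 Cd34 peaks. Leading peaks of the polarity kinase Mark1 and the semaphorin receptor Plxna2 held 29.2 and 51.1 reads in Malat1-guide cells, against 82.6 and 112 reads in luciferase-guide cells. The authors' deposited table put their adjusted p at 0.0565 and 0.0692. After centring on the median of all peaks, which favours lower peaks by construction, they were 0.0402 and 0.0442. The single peak assigned to Lamb3, a laminin chain, lies outside the RefSeq bounds of the gene and held 30.9 reads in Malat1-guide cells and 47.3 in luciferase-guide cells.

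**Figure D5:**
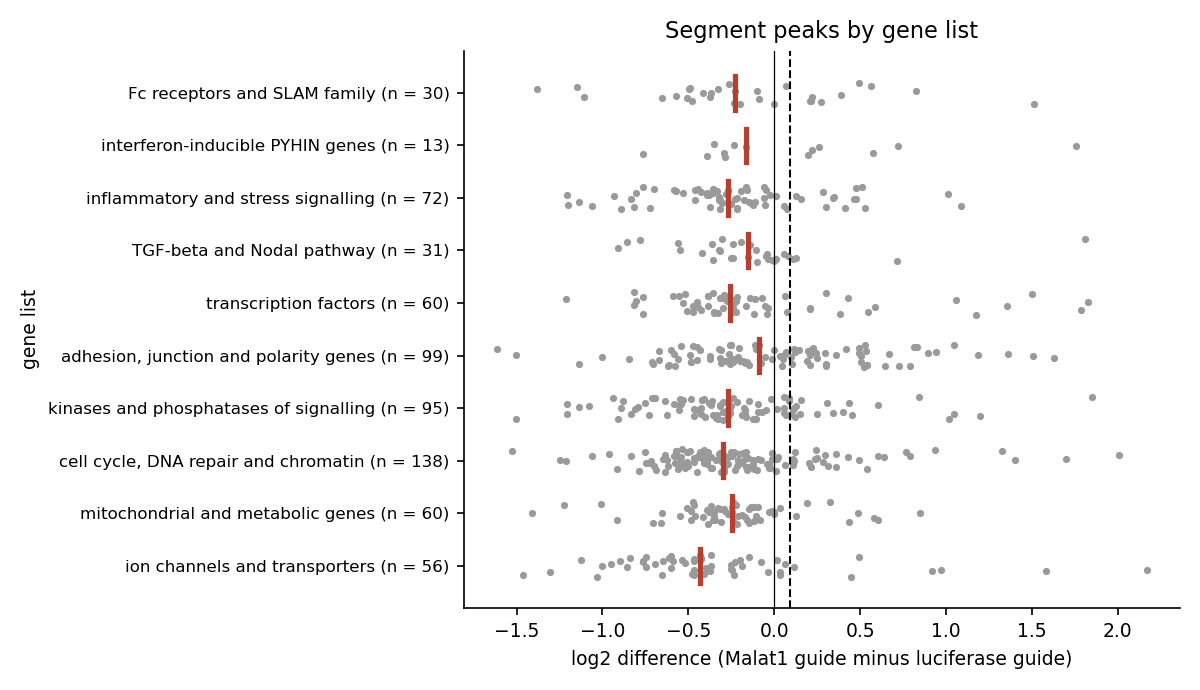
Log2 difference of the group means (Malat1 guide minus luciferase guide) of each segment peak assigned to a gene of 10 lists; red bars are list medians, the solid line is 0 and the dashed line is the median of all peaks, 0.09. All list medians lie below 0, from -0.43 for ion channels and transporters to -0.09 for adhesion, junction and polarity genes.

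Lists of general cell functions had medians below the segment's -0.24, as did inflammatory and stress signalling (-0.27) and transcription factors (-0.26). For the mitochondrial and metabolic list the gap was small, -0.247 against -0.241. Kinases and phosphatases of signalling had 69 of 95 peaks lower, a median of -0.27, and 3 lower and 1 higher calls. The lower calls were Itpkb, Ppp2r5a and Coq8a, and the higher call was Rgs7, which is no kinase but a regulator of G protein signalling. Genes of cell cycle, DNA repair and chromatin had 107 of 138 peaks lower, a median of -0.30, and 1 lower call at Sde2 and 1 higher call at Fmn2. The promoter peak of Ints7, a subunit of the Integrator complex, held 778 reads in Malat1-guide cells and 1041 in luciferase-guide cells, and the authors' deposited table put its adjusted p at 0.0617. After centring on the median of all peaks, which favours lower peaks by construction, it was 0.0132. The list of mitochondrial and metabolic genes, which held neither Mtarc1 nor Coq8a, had 51 of 60 peaks lower, a median of -0.25, and 2 lower calls at Lpgat1 and Degs1. The promoter peak of Cox20, an assembly factor of cytochrome oxidase, held 655 reads in Malat1-guide cells and 858 in luciferase-guide cells, and the authors' deposited table put its adjusted p at 0.137. After that centring it was 0.0398. Ion channels and transporters had the lowest median, -0.43 over 56 peaks with 45 lower, with 2 lower calls at Cnih3 and 1 higher call at Pld5, which encodes no channel but a phospholipase D relative.

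Promoters of cell type markers elsewhere in the genome give the context of the line. Among the epithelial and mesenchymal markers, the promoters of Krt8, Krt18, Cdh1, Vim and Cdh2 held 276, 133, 130, 820 and 183 reads in Malat1-guide cells, against 208, 68.7, 90.7, 701 and 145 reads in luciferase-guide cells. The Zeb1 promoter held 86.7 reads in Malat1-guide cells and 117 in luciferase-guide cells. The Foxa2 promoter, of the lung lineage, held 348 reads in Malat1-guide cells and 254 in luciferase-guide cells. No promoter peak was assigned to the epithelial marker Epcam, the lung markers Nkx2-1 and Sftpc, the leukocyte markers Ptprc, Cd3e and Itgam, or the endothelial markers Pecam1 and Cdh5. The promoter of a further endothelial marker, Kdr, held 54.4 reads in Malat1-guide cells and 31.98 in luciferase-guide cells. The median promoter peak of the table held 272 reads. Zeb1 and Cdh2 had 2 promoter peaks each, of which the stronger is given. None of the marker promoter peaks given here was called. Calls at promoters were rare, with 28 lower and 163 higher among the 13456 promoter peaks outside the segment.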

How the data were processed

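Per the submitters' processing notes, the authors used Bowtie2, MACS2, DiffBind, ChIPseeker, FastQC, Picard and deepTools with the mm10 build, and no version or setting is stated there. The authors deposited 1 annotated table of 80881 peaks. Per the file headers it holds log2 mean concentrations of normalized reads for each group, a log2 fold, a p-value and an adjusted p-value. The headers name the groups dmA12 and dLuc, mapped to mA2 dRNA and Con dRNA because the series has a single contrast. The 4 columns with values per library match no sample label and were not used, so library depths, the spread between libraries and a count test are not given.

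Differences were computed from the deposited log2 group means, because the deposited log2 fold is shrunken: outside the called peaks its median ratio to the difference in the segment was 0.105. At 587 peaks the deposited log2 fold and the difference had opposite signs. The words lower and higher follow the group means there too. The deposited adjusted p equals the Benjamini-Hochberg value over all peaks to within 7.4e-06. For centring, each difference was divided by the z score of its deposited p-value to give a standard error, shifted, and adjusted again over all peaks. These errors are approximate, because the deposited p-value comes from the authors' own fit and not from this difference. Where p was above 0.9 the median error of 100 level bins was used, a repair chosen after seeing the data. Sequences are from RefSeq tables (GRCm38.p6), and all 234 gene IDs of the segment matched. Python 3.11.15, pandas 2.3.3 and scipy 1.17.1 were used.

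The segment, the gene lists and the named genes were chosen with earlier results of these data known. Named were up to 10 called genes per direction by smallest adjusted p, up to 3 genes per list, the 5 strongest peaks, the 3 peaks on each side of the boundary, and Tgfb2, Atf3, Lamb3, Prox1, Parp1 and Traf5. Some items that these rules name are not reported here. The other called peaks, the microRNA genes, further peaks of Cd34, Kif26b, Smyd3, Hhat, Kcnh1, Kcnk2 and Tlr5, and the genes named for the direction of all their peaks were chosen after their values were seen. Thresholds, centring, a filter on low values, the boundary and the peak class were varied.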

Additional observations from a re-analysis of the deposited data

How the results depend on the processing

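The median difference of -0.24 stayed between -0.33 and -0.21 under another boundary, centring on all peaks, a filter at 64 reads, promoter or distal peaks alone, or without the stretch from Kcnh1 to Sertad4. With the authors' deposited log2 fold in its place it was -0.025. Lower calls, 18 as deposited, were 45 after centring on all peaks, 37 at an adjusted p under 0.1, 2 at an adjusted p under 0.01, and 4 after centring on the segment's own median. Higher calls, 10 as deposited, were 26 after that last centring, 6 with the filter, 5 at an adjusted p under 0.01, and 3 with the segment from 180 Mb. Centring on the median of all peaks kept all 18 lower and 9 of 10 higher calls, and the filter kept 15 and 6, having removed 3 and 4 peaks. Centring on chromosome 1 or on the segment was chosen after seeing the data. Centring on the segment adds 0.24 to every difference of peaks chosen for low means, so the direction of its effect on both counts is fixed by construction. Centring on the median of all peaks takes 0.09 from every difference, which by construction favours lower calls and works against higher calls. A looser or stricter threshold can only add or remove calls. With the segment from 180 Mb, the higher calls at Fmn2, Rgs7, Becn2, Pld5 and Kif26b fell out because they lie before that boundary. With the filter, the higher calls lost were the 4 peaks it removed. The cause of the remaining shifts was not tested.

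No paired analysis was possible because the columns used are group means and columns of single libraries name neither a sample nor a replicate. For the same reason a replicate block, leaving out each replicate and DESeq2 size factors against TMM were not run. How library depth and the spread between samples limit these values could not be stated.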

Other observations

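Among genes with at least 6 peaks in the segment, Kcnk2, which encodes a potassium leak channel, had the lowest median difference, -0.76, and 11 of its 12 peaks had the lower mean in Malat1-guide cells. Its strongest peak held 264 reads in Malat1-guide cells and 365 in luciferase-guide cells. The peak 2.94 kb upstream of its start site held 192 reads in Malat1-guide cells and 321 in luciferase-guide cells, and the authors' deposited table put its adjusted p at 0.138. No Kcnk2 peak was called.

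Tlr5, which encodes the flagellin receptor, had 14 of 19 peaks lower. Its strongest peak, 28.2 kb downstream of the start site, held 442 reads in Malat1-guide cells and 601 in luciferase-guide cells, and a peak 51.5 kb upstream held 85.4 reads in Malat1-guide cells and 197 in luciferase-guide cells. Their adjusted p was 0.146 and 0.0971 in the authors' deposited table. The 5 higher peaks all lay over 86 kb downstream of the start site. Both genes were chosen after their values were seen.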
